A study of Mus musculus with 2 samples.

Results

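Exon-confined H3K36me3 peaks are stretches of called signal that sit almost wholly inside annotated exons of protein-coding genes. Members were selected on 2 measured properties from the authors' list of replicated peaks: a length under 6 kb, and at least 90% of the bases in the union of exons over all transcripts of protein-coding genes (GENCODE release M21, mm10 assembly). The rule found 4310 members among 56117 replicated peaks (7.68%), covering 4.38 Mb or 5.10% of all replicated peak bases. They were set beside the 49049 remaining peaks with at least 90% of their bases inside coding gene bodies, and 2758 peaks belonged to neither set. Position and length come from the same signal as the peak values, so everything below is a description and no test was made.

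The peaks come from chromatin immunoprecipitation and sequencing (ChIP-seq) of primary macrophages of C57BL/6J mice, cultured from bone marrow (BMDM) and given no stimulus. There was 1 group with 2 biological replicates, each started from 10 ng of DNA with fragments of 350 to 480 bp. Both carry the same donor record, and the labels give neither age nor sex, so it is not known whether the replicates came from separate animals. Of 10 macrophage marker genes, 8 had a peak and were at least 20% covered by replicated peaks, whereas none of 4 markers each of T cells, B cells, fibroblasts and neutrophils had any.

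Trimethylation of lysine 36 on histone H3 (H3K36me3) is laid down behind elongating RNA polymerase II, mainly by the methyltransferase Setd2. It marks the bodies of transcribed genes, tends to increase towards their 3′ ends, and is known to be richer over exons than over introns. Most internal exons of mammalian genes are shorter than the DNA of a single nucleosome, while the last exon, which usually carries the 3′ untranslated region, can be much longer. A retained-intron transcript is an annotated RNA in which an intron has not been spliced out, so sequence that is intron in the coding transcript counts as exon in it.

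The label holds by the rule but covers 2 kinds of place. One transcript was chosen for each gene (the APPRIS principal isoform, which is the annotated main protein product, then the longest coding sequence). By exons of those transcripts, 2330 members (54.1%) were at least 90% exonic. A further 378 (8.77%) reached 90% once exons of other coding transcripts were added. The other 1602 (37.2%) became exonic only through non-coding transcripts of coding genes, 1436 (33.3%) through retained-intron transcripts and 166 (3.85%) through other kinds. In all, 996 members (23.1%) had no base in an exon of the chosen transcript.

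The 3 windows that follow show what such a member spans. They are the 5′ splice sites with the last coding exon bases on the left, taken from Ints12 (an Integrator complex subunit) at chr3:133100748-133100867, Ncbp3 (a cap-binding subunit) at chr11:73053469-73053588 and Exoc1 (an exocyst subunit) at chr5:76537798-76537917. All are on the plus strand of mm10. Capitals mark the exon of the chosen transcript, and lower case marks bases that are intron there and exon in a retained-intron transcript. The peak covers both sides of the junction.
Ints12: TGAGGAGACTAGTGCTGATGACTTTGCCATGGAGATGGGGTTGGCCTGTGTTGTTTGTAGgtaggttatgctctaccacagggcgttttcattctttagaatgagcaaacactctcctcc
Ncbp3: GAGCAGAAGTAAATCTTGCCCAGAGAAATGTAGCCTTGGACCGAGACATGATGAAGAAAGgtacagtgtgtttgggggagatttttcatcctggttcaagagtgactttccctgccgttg
Exoc1: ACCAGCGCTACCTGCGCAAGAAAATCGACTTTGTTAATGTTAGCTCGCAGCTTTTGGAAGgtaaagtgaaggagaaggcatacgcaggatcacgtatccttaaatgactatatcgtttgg

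Most other members lie in exons of the chosen transcript, chiefly in parts of last exons without coding sequence, and 317 members are at least 90% coding. Among the coding ones are those in zinc finger genes of the C2H2 type, which pack most of their fingers into 1 exon, and the fingers are joined by a conserved TGEKP linker. The 200-base windows with most linkers in 3 of the 10 members of highest enrichment are shown 5′ to 3′ along the gene, with the linker codons in capitals. They lie at chr19:61118893-61119092 (minus strand, Zfp950), chr7:39536515-39536714 (plus strand, Zfp619) and chr13:67592395-67592594 (minus strand, Zfp729b), and each holds 3 linkers.
Zfp950: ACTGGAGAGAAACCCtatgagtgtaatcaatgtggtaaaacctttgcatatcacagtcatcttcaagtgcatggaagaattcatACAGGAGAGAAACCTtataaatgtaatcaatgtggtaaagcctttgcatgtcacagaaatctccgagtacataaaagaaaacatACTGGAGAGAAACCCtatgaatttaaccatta
Zfp619: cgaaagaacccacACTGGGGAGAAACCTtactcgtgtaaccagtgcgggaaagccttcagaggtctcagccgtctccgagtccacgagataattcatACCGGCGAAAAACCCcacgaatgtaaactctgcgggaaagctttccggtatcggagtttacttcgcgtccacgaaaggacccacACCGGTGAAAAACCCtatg
Zfp729b: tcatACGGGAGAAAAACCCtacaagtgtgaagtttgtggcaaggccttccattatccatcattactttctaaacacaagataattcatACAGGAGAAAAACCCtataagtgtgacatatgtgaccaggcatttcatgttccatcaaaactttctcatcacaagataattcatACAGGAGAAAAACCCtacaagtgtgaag

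**Figure D1:**
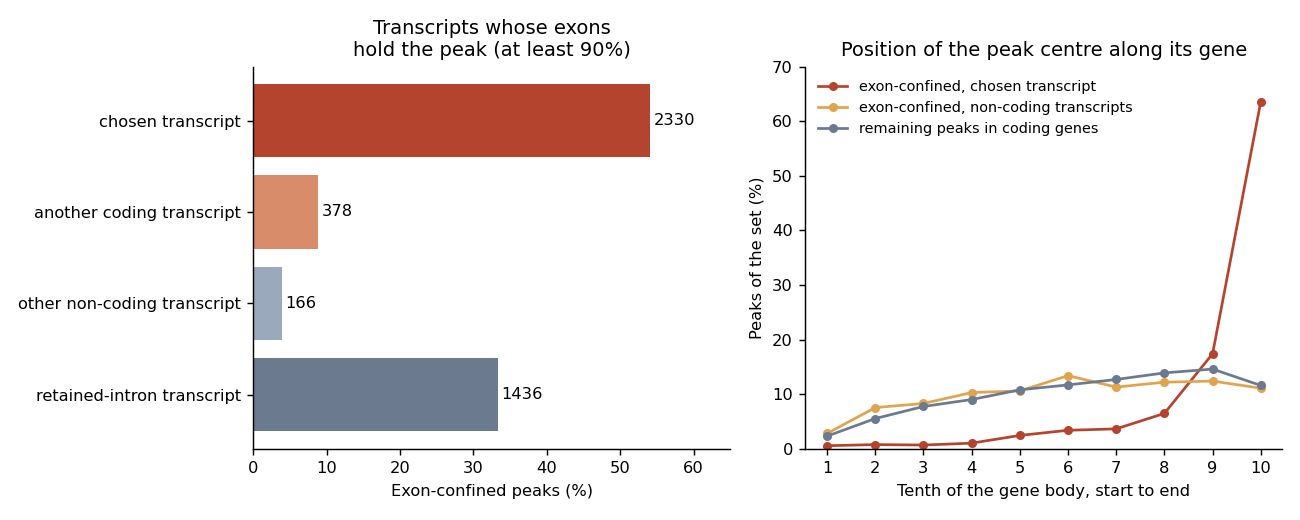
Left, the percent of the 4310 exon-confined peaks by the kind of transcript whose exons bring them to 90% exonic, with the number of peaks at each bar. Right, the percent of each set of peaks whose centre falls in each of 10 equal steps along the gene body: 63.6% of the members in chosen-transcript exons sit in the last step, against 11.1% of members in non-coding transcripts and 11.6% of the remaining peaks.

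The 2 kinds differed in where they lay and hardly in how strong they were. Members in chosen-transcript exons had a median position 93.9% of the way along their gene, and members exonic through retained introns 57.4%, near the 62.3% of the remaining peaks. Median enrichment, read from the column order of the file format as a ratio of signal to the caller's background, was 2.97 for the first kind and 2.98 for the second. Median lengths were 803 and 826 bp. Replicate 1 peaks covered at least 50% of the length of 17.6% and 21.7% of them, and replicate 2 peaks 57.7% and 60.5%.

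For scale, exons of the chosen transcripts make up 7.88% of the bodies of genes touched by a replicated peak, but 16.6% of the replicated peak bases in those bodies. Exon sequence added only by non-coding transcripts makes up 3.36% of the bodies and 6.26% of the peak bases. Intronic sequence by every transcript makes up 87.8% and 75.7%. Coverage also changes along the gene, and these shares were not matched for that position.

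Most members with an exon of the chosen transcript lay in the last one. A host exon, the exon of the chosen transcript with the largest overlap, was found for 3290 members (76.3%). It was the last exon of its transcript for 2372 members (55.0% of all members, 72.1% of those with a host exon), an internal exon for 884, the only exon for 20 and the first for 14. When at least 90% of the peak had to fall in that single exon, 2299 members were left, of which 2114 (92.0%) were in last exons, 156 in internal, 19 in single and 10 in first exons. In all coding genes touched by a replicated peak, last exons make up 8.03% of the exons and 49.4% of the exon bases. Few exons of other classes there are long enough to hold most members. Of the exons of 1 kb or more, 4964 were last exons, 595 internal, 180 first and 40 single.

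Exon rank followed from this. Among the 156 internal hosts, 44 were exon 2, 41 were exons 3 to 5, 36 were exons 6 to 10 and 35 came later. The median last-exon host was exon 9 of a 9-exon transcript. Of the 2330 members at least 90% in chosen-transcript exons, 31 did not reach 90% in a single exon of their own gene.

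Host exons that held at least 90% of a member were long, which that rule partly sets. By largest overlap alone, the 884 internal hosts had a median of 162 bp (quartiles 108 and 363). The median host last exon (90% rule) measured 3184 bp and the median internal host 1974 bp, whereas the median internal exon in genes touched by a peak was 122 bp and the median last exon 1314 bp. Of all internal exons there, 92.2% were shorter than the shortest member, so a peak of this kind could not fit in them. The share of exons that held a member rose with exon length in both classes. A peak must fit in the exon to be counted, so this rise is partly set by the rule. The share of exon bases under any replicated peak did not rise in the same way. From 1 to 2 kb, 2 to 4 kb and above, it was 54.8%, 47.0% and 31.4% in last exons. In internal exons it was 57.2%, 52.0% and 62.4%. The share of last exons that held a member was 16.5% (15.0 to 18.1, exact 95% binomial interval) from 1 to 2 kb. It was 40.9% (38.7 to 43.1) from 2 to 4 kb and 58.8% (55.2 to 62.4) above that. Internal exons of the same sizes gave 10.6% (7.90 to 13.9), 34.9% (26.7 to 43.8) and 44.1% (27.2 to 62.1). The intervals of the 2 classes overlap above 2 kb and do not overlap from 1 to 2 kb. They treat exons as independent, and exons of 1 gene are not.

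First exons stood apart. Of 153 first exons from 1 to 2 kb, 4 (2.61%, interval 0.717 to 6.56) held a member, and of 25 from 2 to 4 kb, 3 did (interval 2.55 to 31.2%). No member was found in 4835 first exons under 250 bp, 2519 from 250 to 500 bp or 756 from 500 bp to 1 kb. The shortest member measured 226 bp, and no internal or last exon under 250 bp held one either. From 250 to 500 bp, 0.183% of internal and 0.830% of last exons held a member. From 500 bp to 1 kb, 2.63% and 3.97% did. Any replicated peak touched 5.23% of first exons from 1 to 2 kb, against 69.2% of internal and 77.8% of last exons of that length. The first exons with the strongest members were those of Gm49322 (enrichment 3.55, a peak overlapping 3 coding genes) and Gm38394 (3.38, overlapping 4), followed by Phospho2 (2.89) and Rbm15 (2.89), an RNA-binding protein of the m6A writer complex. These first exons were named after their values were seen.

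**Figure D2:**
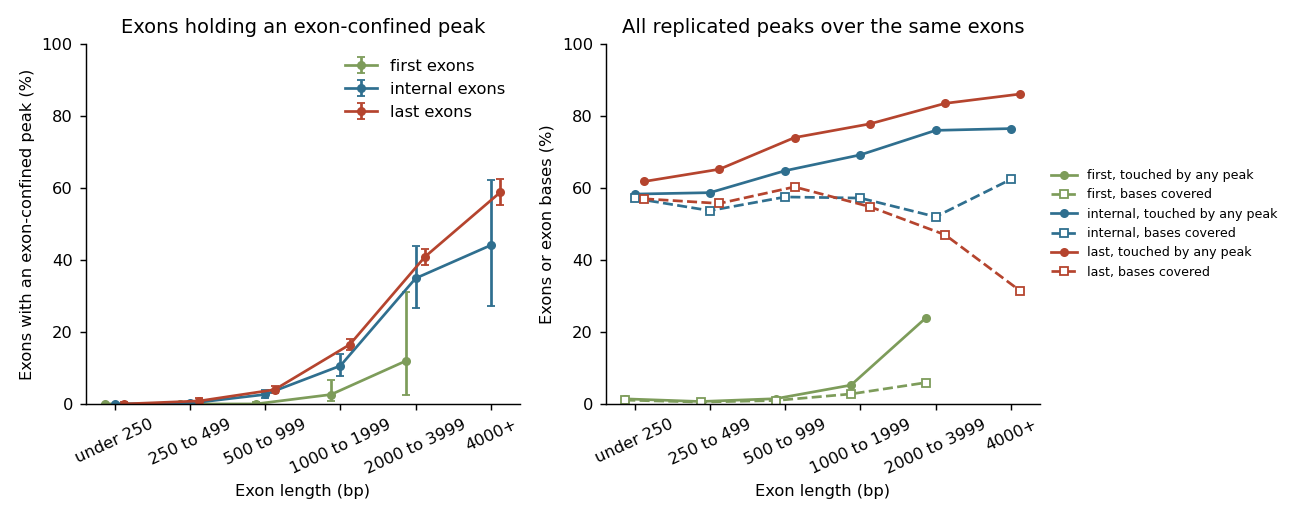
Left, the percent of first, internal and last exons of the chosen transcripts, by exon length in bp, that hold an exon-confined peak; bars are exact 95% binomial intervals and classes with fewer than 20 exons are left out. Right, the percent of the same exons touched by any replicated peak (filled) and the percent of their bases covered (open): last exons of 4 kb or more are touched in 86.1% of cases and covered over 31.4% of their bases.

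Peaks in last exons rarely filled them. The median member in a last exon covered 26.7% of that exon (quartiles 15.9 and 47.2), began 715 bp after the exon's 5′ edge and ended 1048 bp before its 3′ edge. Both edges lay more than 100 bp inside the exon for 1485 of 2114 (70.2%). The 5′ edge was within 100 bp of the splice site for 460 (21.8%) and the 3′ edge within 100 bp of the annotated transcript end for 208 (9.84%). In internal exons the median member covered 52.0% of the exon, with gaps of 236 and 400 bp.

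Most last-exon members lay outside the coding part. Of the 2114 last-exon members, 1359 (64.3%) held no coding base, 616 (29.1%) were part coding and 139 (6.58%) were at least 90% coding. Their median enrichments were 2.89, 3.22 and 3.05. Members at least 90% inside 1 internal exon were the reverse, with 146 of 156 (93.6%) at least 90% coding. The 884 members with an internal host by largest overlap had a median of 18.6% coding bases.

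Along the gene, 1832 members (42.5%) had their centre in the last 10% of the gene body, against 11.6% of the remaining peaks, and 60 (1.39%) in the first 10%, against 2.32%. The peak landscape around members was lopsided. The sets were not matched for position along the gene, where the medians were 86.1% for members and 62.3% for remaining peaks. At 3 kb upstream of the centre, counted along the direction of transcription, 41.2% of members had a replicated peak, and at 3 kb downstream 26.0%. Around remaining peaks under 6 kb the same values were 41.1% and 47.3%. At 5 kb downstream they were 22.0% for members and 44.3% for remaining peaks.

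Members also stood a little more alone, in a comparison not matched for position or for host gene length (medians 41.0 kb and 58.2 kb). The nearest other replicated peak was at a median of 274 bp for members and 245 bp for remaining peaks. It was more than 10 kb away for 343 members (7.96%) and for 1523 remaining peaks (3.11%).

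**Figure D3:**
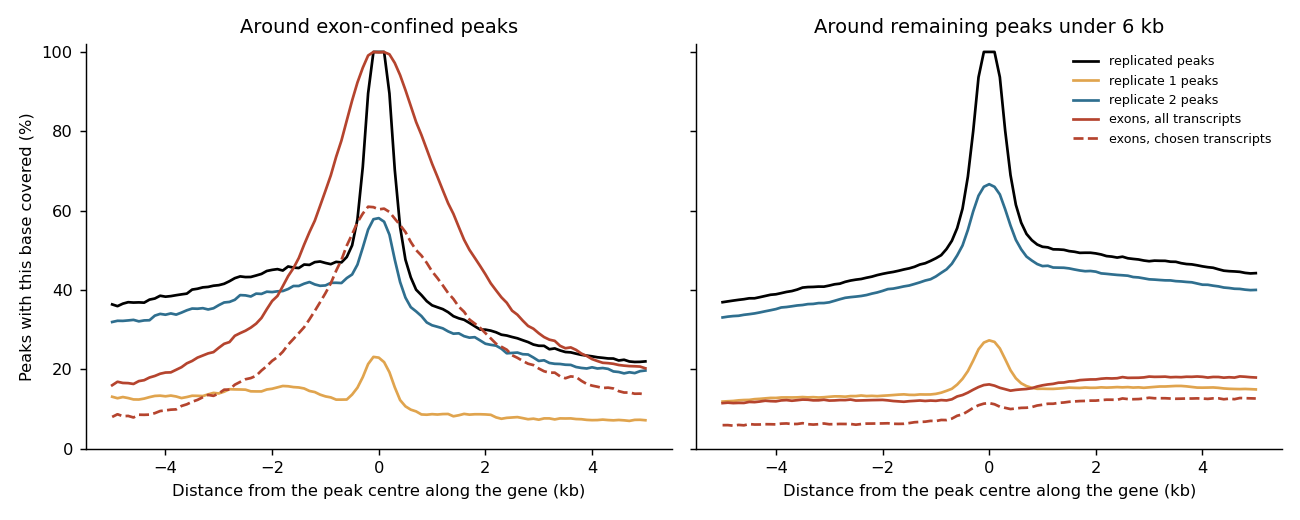
Percent of peaks for which the base at each distance from the peak centre (kb, along the direction of transcription) lies under a replicated peak, a peak of replicate 1 or 2, or an exon, for the 4310 exon-confined peaks (left) and the remaining peaks under 6 kb (right). The replicated-peak line falls to 22.0% at 5 kb downstream of members and stays at 44.3% downstream of remaining peaks.

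Exon-confined peaks were shorter and slightly weaker than the remaining peaks. The rule caps their length at 6 kb and asks that they fit in exons, so the shorter length is partly set by the selection. Their length had a median of 809 bp (quartiles 532 and 1276, range 226 to 5511), against 1086 bp (660 and 1913, range 220 to 26007). Their enrichment had a median of 2.97 (quartiles 2.64 and 3.38, range 1.60 to 5.78), against 3.14 (2.72 and 3.55, range 1.54 to 8.17), a difference of -0.165. The difference was also -0.165 against the 47995 remaining peaks under 6 kb. The deposited enrichment takes few distinct values, with 30 of them holding 72.5% of the replicated peaks and a commonest step of 0.0824, so that difference is 2 steps. Median −log10 p was 8.36 and 9.20, and median −log10 q 6.05 and 6.73.

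The difference in enrichment was not seen among peaks of like length. Under 500 bp both medians were 2.72 (925 members, 6517 remaining). They were both 2.89 from 500 bp to 1 kb (1771 and 15946), 3.22 from 1 to 2 kb (1224 and 15093) and 3.63 from 2 to 4 kb (371 and 8407). Only 19 members were 4 kb or longer, with a median of 3.88 against 4.04 for 2032 remaining peaks. Against the 20497 remaining peaks that were wholly intronic, with a median of 2.89, members were higher by 0.082. That comparison was not matched for length, and its size is that of the commonest step between enrichment values.

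**Figure D4:**
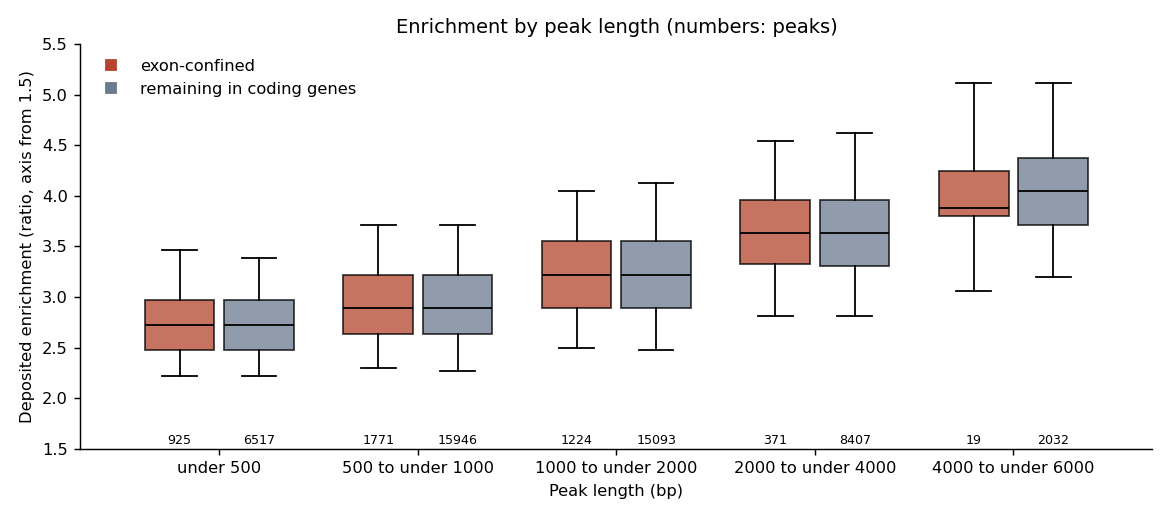
Deposited enrichment (ratio, axis starting at 1.5) by peak length in bp for exon-confined and remaining peaks; boxes show quartiles and median, whiskers the 5th and 95th percentiles, and the numbers the peaks in each box. The paired medians coincide in the 4 classes under 4 kb.

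The thresholds cut through a continuum. Just inside the 90% exonic share lay peaks at Rmc1, Ash2l and Wbp4 (90.02% each, enrichments 2.72, 3.71 and 3.30), and just outside it peaks at Myh9 (89.99%, 3.55), Rnf2 (89.99%, 4.70) and Btbd7 (89.98%, 2.99). Beyond the length limit there were only 2 peaks, at Plec, encoding the cytoskeletal linker plectin (6330 bp, 97.90% exonic, enrichment 7.84), and at Zfp646 (9512 bp, 92.96%, 5.36). The Plec value is above that of every member. Within the limit, the longest were at Dock10, Ints12 and Ncbp3 (5511, 5358 and 5295 bp).

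Fewer members than other peaks were also called in a replicate alone. Peaks of replicate 1 covered at least 50% of the length of 818 members (19.0%), against 22.7% of all replicated peaks and 23.0% of the remaining ones. Peaks of replicate 2 did so for 2505 members (58.1%), against 67.4% and 68.1%. Both did for 573 (13.3%, against 18.5% of the remaining), and 1370 (31.8%, against 23.0%) touched no peak of either replicate. The median enrichment of those 573 was 3.55 and of those 1370 was 2.64.

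This too moved with length. In replicate 2 the supported share was 22.6% for both sets under 500 bp, 53.4% of members and 54.0% of remaining peaks from 500 bp to 1 kb, and 80.6% and 81.1% from 1 to 2 kb. In replicate 1 the shares were 7.78% and 7.07%, 18.2% and 17.3%, and 24.3% and 23.6%. Up to 4 kb the sets stayed within 3 percentage points of each other in both replicates. In the class of 19 longest members, replicate 1 covered 31.6% of members and 48.4% of remaining peaks.

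**Figure D5:**
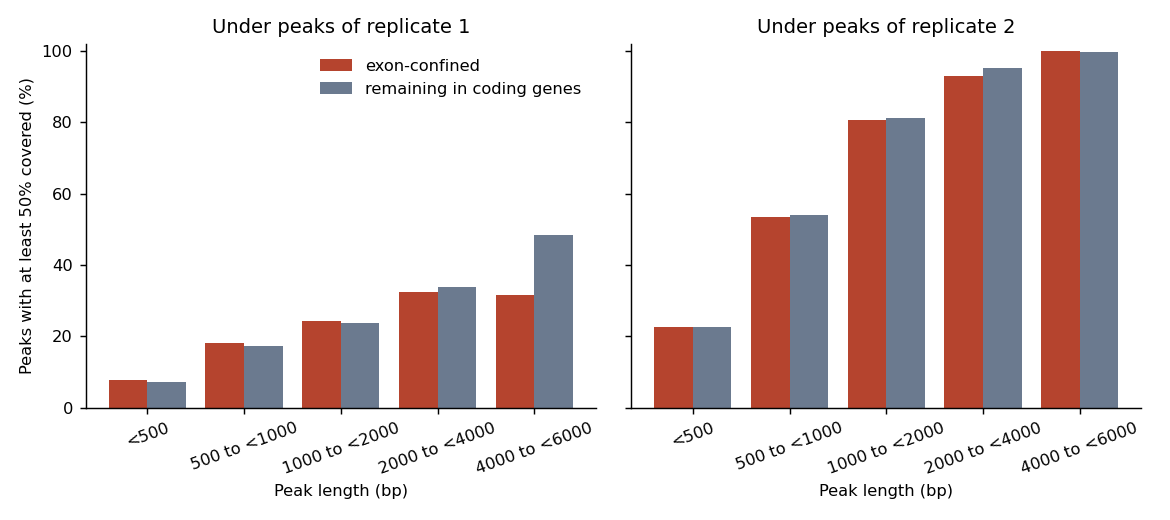
Percent of exon-confined and remaining peaks with at least 50% of their length under peaks called in replicate 1 (left) or replicate 2 (right), by peak length in bp. Within each length class under 4 kb the 2 bars are close, and both rise with length.

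Where a replicate's own peak touched a member, that peak was mostly exon-confined as well. This held for 1245 of 1300 touched members in replicate 1 (95.8%) and 2269 of 2708 in replicate 2 (83.8%). Applied to each replicate's own list, the rule gave 3472 of 32098 peaks (10.8%) in replicate 1 and 4599 of 58505 (7.86%) in replicate 2. The median enrichment of these sets, 3.12 and 3.82, belongs to separately called lists and is not compared between them.

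Members lay in 2871 genes, 13.1% of 21938 coding genes and 34.4% of the 8341 genes (38.0%) touched by any replicated peak. Of these genes 1958 held 1 member, 604 held 2 and 309 held 3 or more. The genes with most were Phip (12), a bromodomain protein, Ankrd17 (11), an ankyrin repeat protein, Nktr (9), a cyclophilin with an arginine- and serine-rich tail, Cop1 (8), a ubiquitin ligase, and Ube2d3 (8), a ubiquitin-conjugating enzyme. Most of their members were exonic through retained introns. At Phip, only the 2 members in the last exon, exon 40 of 5703 bp, were exonic in the chosen transcript, with enrichments of 2.42 and 2.89. The other 10 ranged from 2.44 to 3.80.

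The members of highest enrichment were mostly in last exons. The first was in exon 2 of 3 of the zinc finger gene Zfp865 (chr7:5029218-5030315, 1098 bp, wholly coding), with an enrichment of 5.78 in the replicated list, 5.42 in the replicate 1 peak there and 6.43 in the replicate 2 peak. The member at Spen, encoding a transcriptional corepressor that binds RNA, lay in exon 12 of 16, which is 8020 bp long. It measured 4061 bp (chr4:141473142-141477202, wholly coding) at 5.69, with 3.80 and 7.29 in the replicates. Replicate 1 covered 57.4% of each of these 2 members, and replicate 2 covered 99.3% and 100%. The replicate 2 peaks there were longer, at 2923 bp (45.1% exonic) and 8858 bp (83.3% exonic), and so were not exon-confined themselves.

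The next 8 were all in last exons. Cd84, a receptor of the SLAM family on immune cells, held a 1477 bp member without coding bases (5.61, replicates 4.61 and 7.29), where the replicate 1 peak was 87.1% exonic. Trim32, a ubiquitin ligase, held one of 2751 bp that was 71.4% coding (5.61, replicates 5.01 and 6.43). It overlapped 2 coding genes, as did the members at 9930111J21Rik1, Gbp9 and Zfp729b, and the member at Zfp865 overlapped 3. The member at 9930111J21Rik1 measured 458 bp (5.53, replicates 3.66 and 6.95). Gbp9, a guanylate-binding protein of the interferon response, had 5.36 (replicates 4.07 and 6.25), and Hspa4, a chaperone of the Hsp110 family, 5.28 (replicates 3.25 and 7.29). Replicate 1 covered between 41.1% (Trim32) and 98.1% (Gbp9) of these 5 members, and replicate 2 at least 94.3%.

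The other 3 were the zinc finger genes shown above. Zfp729b (5.36, replicates 4.88 and 7.12), Zfp619 (5.36, replicates 4.88 and 6.25) and Zfp950 (5.20, replicates 3.84 and 7.18) held members of 2675, 3410 and 2162 bp that were 94.1%, 91.6% and 75.7% coding. At Zfp729b the overlapping replicate 2 peak was 6416 bp long and 52.4% exonic, so that it was not exon-confined either. At Zfp619 the replicate 2 peak measured 3322 bp and was 93.7% exonic.

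All 5 of the longest members were exonic through retained-intron transcripts. They lay at Dock10, a guanine nucleotide exchange factor (5511 bp, enrichment 3.88), Ints12 (5358 bp, 3.88), Ncbp3 (5295 bp, 3.63), Eif5b, a translation initiation factor (4989 bp, 3.88), and Exoc1 (4916 bp, 4.28). Exons of the chosen transcript covered between 2.00% (Ncbp3) and 74.5% (Eif5b) of them. Among members exonic only through non-coding transcripts, the highest enrichments were at Pofut2 (5.03), a protein O-fucosyltransferase, Gga3 (5.03), a Golgi sorting adaptor, and Immt (4.95), which organises mitochondrial cristae. These 3 were picked after their values were seen.

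Coding internal exons of unusual length formed a small set of hosts. Beside Spen, the longest were exon 9 of 13 of Ankrd11 (6518 bp), a chromatin regulator, with a 1277 bp member at 3.55, and exon 10 of 27 of Bod1l (5953 bp), a protein of replication forks, with a 2885 bp member at 3.47. Replicate 1 covered 45.4% and 12.4% of these 2, and replicate 2 covered 100% and 90.8%. The chosen transcript of Ahnak, a giant scaffold protein, lacks the gene's giant exon, so its 3982 bp member (4.13) counted as exonic through another coding transcript.

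Gene lists described here were picked with earlier results of these data known, and are read against 34.4% of peak-bearing coding genes that hold a member. Of 464 zinc finger genes taken by name pattern, 288 had a peak and 148 of those (51.4%) a member. Their 205 members had a median enrichment of 3.14, 157 were exonic in the chosen transcript and 152 had a last exon as host. Among 28 splicing genes, all with a peak, 16 (57.1%) held a member. The strongest were at Prpf4b, a splicing kinase, in exon 15 of 15 without coding bases (4.62, replicates 4.23 and 5.21), at Sf3b2, a subunit of the U2 particle, through a retained intron (4.62, replicates 3.66 and 5.90), and at Scaf8 in exon 20 of 20 (4.21, replicates 4.07 and 5.04).

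Among 48 chromatin regulator genes, all with a peak, 19 (39.6%) held a member. Crebbp, a histone acetyltransferase, had 4.70 through a retained intron (replicates 3.80 and 4.69), Phf3 4.46 (replicates 3.52 and 5.38) and Kmt2e 4.13, where replicate 1 had no peak and replicate 2 had 4.69. Of 31 genes for cytoskeletal linkers and large scaffolds, 26 had a peak and 13 a member, led by Ahnak, by Golgb1, encoding the Golgi protein giantin (3.47 in its exon 13 of 21), and by Akap9, an anchoring protein at the Golgi and centrosome (3.47, touched in neither replicate).

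Toll-like receptors, the sensors of microbial molecules on macrophages, are mostly encoded in 1 long coding exon. Of 12 such genes 9 had a peak and 8 a member, 9 members in all, and 8 of these lay in last exons. Tlr9 had 4.13 over 1734 bp, wholly coding, in its 3369 bp exon 2 of 2, with 5.73 in replicate 2 and no peak in replicate 1. Tlr4, the receptor for lipopolysaccharide, had 3.80 over 2801 bp, with 3.52 and 4.26 in the replicates. Tlr13 held 2 members (2.81 and 3.30), and the members at Tlr3, Tlr6, Tlr7, Tlr8 and Tlr1 had 2.89, 3.22, 2.48, 2.64 and 1.84. The members at Tlr1 and Tlr7 and the stronger one at Tlr13 were covered by no peak of either replicate.

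The macrophage and interferon lists are short, and no difference from the share of all peak-bearing genes was tested. Of 39 macrophage identity genes 29 had a peak and 6 (20.7% of those) a member, among them Apoe, a lipid carrier (3.65), and Irf8, a transcription factor of the myeloid lineage (3.22). Of 44 interferon-stimulated genes, a list without Gbp9, 43 had a peak and 4 (9.30%) a member, among them the transcription factors Irf9 and Irf7 (4.62 each, replicates 3.52 and 5.38, and 3.66 and 6.08) and the guanylate-binding protein Gbp5 (3.96, replicates 3.12 and 4.96), these 3 through retained introns.

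Lysosome and ribosomal genes were counted in the same way. Of 40 lysosome and phagosome genes 38 had a peak and 10 (26.3%) a member, led by Idua (3.88), Neu1 (3.80) and Npc1 (3.55). Of 76 ribosomal protein genes 61 had a peak and 10 (16.4%) a member, led by Rps3 (3.96), Rps15a (3.65) and Rpl13 (3.30). None of 68 protocadherin genes, which also have long coding exons, had any peak. Gene and exon lengths differ between the lists, and their part in these shares was not tested.

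Repeat content and zinc finger linkers differed between the sets. The rule did not use them directly, but it selected exon sequence, so they are not independent of it. Wholly intronic remaining peaks under 6 kb had a median of 21.3% repeats, and 0.0537% of them had a linker. Median GC content was 43.9% in members and 44.1% in remaining peaks under 6 kb. Soft-masked repeats made up a median of 12.5% of a member and 18.2% of a remaining peak, and 19.3% and 26.6% of the 1 kb on each side. The lower repeat share held in every length class, for example 12.8% against 18.6% from 1 to 2 kb. It was 4.34% in the 317 members that were at least 90% coding and 17.1% in those exonic only through non-coding transcripts.

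The coding members also had more CpG, at a median of 17.1 per kb against 10.7 over all members and 10.1 in remaining peaks. Codons of the TGEKP linker, searched by that name on the plus and minus strands, were found in 74 members (1.72%) and in 0.365% of the remaining peaks. From 1 to 2 kb in length the shares were 2.21% and 0.278%. At least 3 linkers were present in 46 members (1.07%, against 0.183%) from 45 genes, 40 of these members in genes of the zinc finger name pattern. Those 46 had a median enrichment of 3.32 and a median length of 1408 bp, and Zfp950 held the most linkers (16), followed by Zfp619 and Zfp729b (12 each). A match is a stretch of letters and says nothing on its own about the mark.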

How the data were processed

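The authors deposited 4 peak lists on the mm10 assembly, per the file headers and notes: 1 for each replicate, 1 on both pooled, and the replicated list from both that was used here. The aligner and the peak caller are not stated in any source used here. Per the file headers the format is narrowPeak. By that format's column order, each deposited peak holds a display score, an enrichment ratio (assumed to be over the caller's background), and the authors' −log10 p and −log10 q. The lists hold no read counts, so depth is unknown. The number and length of called peaks can move with it.

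Exons came from GENCODE M21 and sequence and repeats from GRCm38.p6. Exonic shares were interval overlaps, tested on simulated data. Members and gene lists were chosen with earlier results of these data known. Named were the 10 members of highest enrichment, the 5 longest, the 5 genes with most members, the 3 longest coding internal hosts, the 3 top genes of each list and the 3 peaks either side of each threshold. Some genes that this rule takes are left out. No test was run. Other exon sets, thresholds and lists were tried as alternatives. Overlaps and summaries were made with numpy 2.4.6 and pandas 2.3.3, intervals with scipy 1.17.1.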

Additional observations from a re-analysis of the deposited data

How the results depend on the processing

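The number of exon-confined peaks, 4310, stayed within 1.5 times under 7 of 12 alternatives, and was 3472 to 4599 with 1 replicate's list alone. It was 2707 with exons of coding transcripts only, 2330 with 1 transcript a gene, 317 with coding sequence only, 2765 at a −log10 q of at least 5 and 2105 at an enrichment of at least 3. The difference in median enrichment, -0.165, was -0.082 with an exonic share of 80%, with coding sequence only, at an enrichment of at least 3 and in the pooled list, and -0.127 to -0.111 with 1 replicate's list alone. Averaged within length classes it was -0.001, and 2 added alternatives chosen after seeing the data gave -0.021 in the replicate 1 list and 0.025 in the replicate 2 list. It turned to 0.082 against wholly intronic peaks, which were not matched for length. The share of members in last exons, 55.0%, was 82.7% with exons of coding transcripts, 92.0% with 1 transcript a gene, 43.8% with coding sequence only, 60.9% by the longest transcript and 50.6 to 53.9% with 1 replicate's list alone. Fewer transcripts leave fewer exons by construction; the cause of the other shifts was not tested. With 1 group, no paired analysis was possible because there were no groups to pair. The unknown depth limits which short peaks could be called.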

Other observations

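In 452 of the 2871 host genes (15.7%), every replicated peak was exon-confined. These genes were short, with a median length of 9.72 kb, and 372 of them held a single peak. Of their 546 peaks, 392 (71.8%) were exonic in the chosen transcript and 76.2% had a last exon as host. Median enrichment was 2.97 and median length 810 bp, near the values of all members, and replicate 1 and replicate 2 covered at least 50% of the length of 13.2% and 57.1% of them. The strongest, named after their values were seen, were Trim32, 9930111J21Rik1, Zfp729b, Zfp763 (5.17, last exon, 79.2% coding), Pofut2, Zbtb21 (4.70, last exon, 86.2% coding), Irf7 and Cfl1, encoding the actin-severing protein cofilin (4.54, through a retained intron, with 0% and 78.5% covered in replicates 1 and 2). Trim32 lies inside another coding gene, and its member overlaps both. The members at 9930111J21Rik1, Zfp729b, Zbtb21, Irf7 and Cfl1 also overlap 2 coding genes each.

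Leaving out Y, which had 1 replicated peak and no member, the share of replicated peaks that were exon-confined was lowest on chromosome 11 (5.13%) and highest on X (41 of 387 peaks, 10.6%). Members overlapped 2 or more coding genes more often than remaining peaks, at 442 peaks (10.3%) against 4.39%. Among the 28552 remaining peaks that touched an exon, the summit fell in an exon for 32.0%, while exons made up a mean of 26.1% of their bases. Over all remaining peaks the summit fell in an exon for 18.6%. Of the summed bases of those peaks 19.1% lay in exons, a share in which long peaks weigh more. It is not a mean per peak like the 26.1%, so the 18.6% is not compared with it.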
